A study of Homo sapiens with 44 samples.

Results

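The genes described here are 9 genes of prostaglandin biology: the cyclooxygenases PTGS1 and PTGS2, the prostaglandin E synthases PTGES, PTGES2 and PTGES3, the receptor PTGER4, the degrading enzyme HPGD and the phospholipases PLA2G4A and PLA2G12A. They were found by symbol in both deposited RNA tables, 9 of the 58735 genes with counts in one and 9 of the 27315 symbols in the other. PTGS2 and PLA2G12A were chosen by their log2 change in these data, which was among the largest, so their values are given as a description, without a test. The other 7 were not chosen for their change and carry the p-values of fits over all genes, except where stated.

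The libraries came from MDA-MB-231 and SUM149, both triple-negative breast cancer cell lines, harvested 48 h after transfection with small interfering RNA (siRNA) at 20 nM. In the first experiment MDA-MB-231 cells received a control siRNA, siRelA or siRelB, which target subunits of the transcription factor NF-kB. In the second, MDA-MB-231 and SUM149 cells each received a control siRNA or siEZH2, against the histone methyltransferase EZH2. Each of the 7 groups held 2 libraries, described as biological duplicates, and the 2 experiments had separate controls. Each group is a transient knockdown in 1 cell line, not a set of independent lines, with siRNA sequences not given in the sources used here. Chromatin data of the series (30 immunoprecipitation and input samples) were not analysed here.

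Prostaglandins are lipid signals made from arachidonic acid. Phospholipases A2 free the fatty acid from membrane lipids, cyclooxygenases turn it into prostaglandin H2, and terminal synthases make prostaglandin E2 from that. Prostaglandin E2 acts on a family of EP receptors that includes PTGER4 (EP4), and HPGD inactivates it. PTGS2 (COX-2) is the inducible cyclooxygenase, a well-known NF-kB target in inflammation, and is often abundant in aggressive breast cancer cells, whereas PTGS1 (COX-1) is the constitutive form.

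The first experiment had 18.6 to 24.4 M counts per library. The second was deposited as variance-stabilised (VST) values, a log2-like scale that compresses the fold changes of weakly expressed genes. Undoing the usual form of that transformation gives normalised counts, called recovered counts below, with 26.2 to 28.7 M per library. That form is an assumption, and the recovered counts are not whole reads. The siRNAs lowered their targets. RELA changed by -3.71 ± 0.11 (SE) on the log2 scale under siRelA, and RELB by -2.98 ± 0.16 under siRelB and -1.48 ± 0.14 under siRelA. For EZH2 the MDA-MB-231 control VST values of 11.69 and 11.68 compared with 9.26 and 9.08 after siEZH2, and the SUM149 values of 11.47 and 11.56 with 9.43 and 9.59. Of the marker genes, KRT8 and KRT18 were abundant. Mean VST values in MDA-MB-231 and SUM149 controls were 15.08 and 15.96 for VIM and 15.51 and 13.42 for AXL. They were 12.11 and 7.81 for KRT19 and 7.12 and 10.33 for KRT5. In the first experiment KRT5 had 0 counts in all 6 libraries, CDH1 had 0 to 9 and KRT17 had 2 to 15. Of the hormone receptors and HER2, ESR1 stayed at 0 to 7 counts. Group means of PGR were 0.152 to 0.564 CPM (counts scaled to library size). ERBB2 (HER2) was higher, with means of 86.2, 84.1 and 71.4 CPM in control, siRelA and siRelB cells. Its mean VST values in MDA-MB-231 and SUM149 controls were 10.94 and 9.22. In the first experiment the 5 haematopoietic markers summed to 0.864 to 3.02 CPM, with CD3E and HBB at 0. CD68 differed between the experiments, with 0 to 9 counts in the first and mean VST values of 10.84 to 12.42 in the second, so levels are not compared across them. The 5 fibroblast markers summed to 30.3 to 56.9 CPM, mostly COL1A1 and PDGFRB, with DCN at 0 counts in the first experiment. In the second, mean VST values of DCN were 7.29 and 7.19 in control and siEZH2 cells of the MDA-MB-231 line, and 11.22 and 12.21 in those of SUM149.

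In MDA-MB-231 the prostaglandin E synthases were the abundant genes of the set and PTGS2 was near the bottom. In RPKM (counts scaled to library size and exon length), the control means of the first experiment were 139 ± 2.42 (SD, n = 2) for PTGES3, 16.7 ± 0.106 for PTGES2 and 12.5 ± 0.999 for PTGES. They were followed by PLA2G12A at 3.38 ± 0.387, PTGER4 at 2.27 ± 0.438, PTGS1 at 1.03 ± 0.00952 and PLA2G4A at 0.599 ± 0.0207. PTGS2 lay at 0.263 ± 0.0494 and HPGD at 0.181 ± 0.0142. No 2 neighbours in this order had overlapping libraries. In the MDA-MB-231 controls of the second experiment, by recovered counts per kilobase, PLA2G12A (238 ± 3.06) stood above PTGES (215 ± 5.68), and PTGS1 (27.0 and 32.4) and PLA2G4A (23.1 and 29.5) overlapped. The rest of the order was as in the first experiment. Only the orders within each experiment are set side by side here, since the units differ.

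SUM149 had a different order. PTGES3 was again first, at 3670 ± 168 recovered counts per kilobase (SD, n = 2). PTGS2 came next at 2040 ± 60.3, level with PTGES at 1990 ± 126, and the libraries of the pair overlapped. PTGES2 (605 ± 49.1), PLA2G4A (389 ± 5.56) and PLA2G12A (293 ± 2.99) followed, then PTGER4 (24.5 and 22.2) and PTGS1 (15.2 and 22.5), which overlapped. HPGD was last, with one control library at the lowest VST value of the table.

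**Figure D1:**
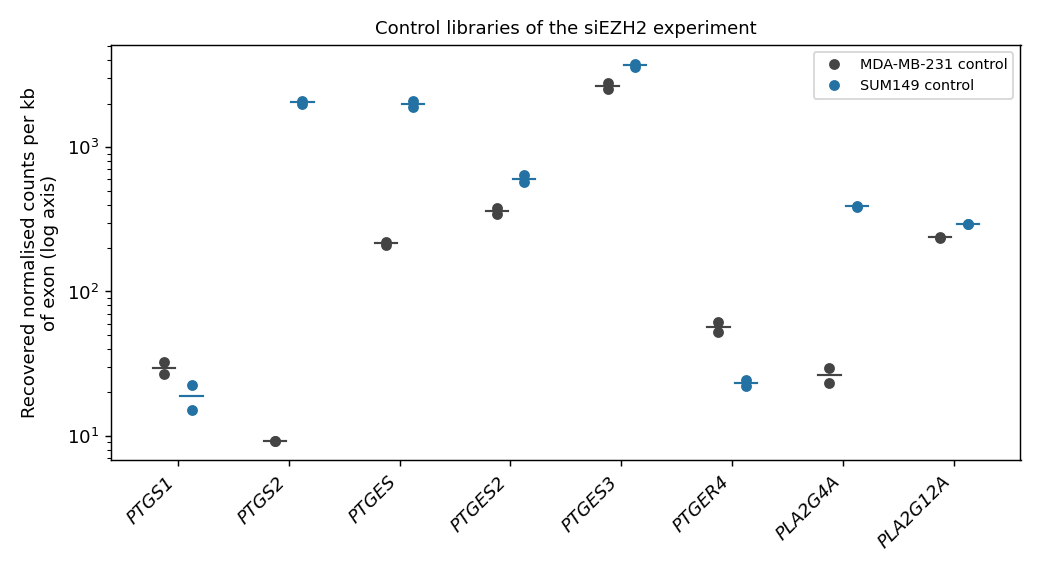
Recovered normalised counts per kilobase of exon (log axis) for 8 genes in the 2 control libraries of each line, with points for libraries and bars for means. HPGD is left out because 1 SUM149 library lies at 0. PTGS2, PTGES and PLA2G4A are far higher in SUM149, and PTGER4 and PTGS1 are lower.

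Between the control cells of the lines, 4 of the 6 tested genes not chosen for their change were higher in SUM149 and 2 were lower. Over all genes 82.8% were called in this comparison (limma, adjusted p under 0.05), so being called says little here and the sizes carry the comparison. PLA2G4A, the cytosolic phospholipase A2 that supplies arachidonic acid for signalling, had VST values of 8.10 and 8.22 in MDA-MB-231 and 10.42 and 10.45 in SUM149. It was 2.28 ± 0.07 higher in SUM149, 14.8-fold in recovered counts. It passed the filter on low values only through the SUM149 libraries. This difference is therefore given without a test, although the count of 4 of 6 includes it. PTGES, the inducible microsomal synthase that works beside PTGS2, had 9.37 and 9.34 against 11.91 and 12.04, a difference of 2.62 ± 0.06 (limma adjusted p = 9.2e-14) and 9.23-fold. The synthases PTGES2 (0.68 ± 0.07, limma adjusted p = 8.7e-07) and PTGES3 (0.46 ± 0.06, limma adjusted p = 1.1e-05) were higher by less, 1.67-fold and 1.38-fold. The receptor PTGER4 went the other way, at 8.71 and 8.83 in MDA-MB-231 and 8.23 and 8.18 in SUM149 (-0.56 ± 0.07, limma adjusted p = 2.4e-06), 2.44-fold lower. PTGS1 was lower by 0.29 ± 0.08 (limma adjusted p = 0.00451), a call lost without MDA-MB-231 control 2 (adjusted p = 0.0655) or SUM149 control 1 (adjusted p = 0.0618). The lines are 1 line each, so subtype and line cannot be told apart.

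PTGS2 had the widest range of the set. In the first experiment it was near its floor, with 29 and 37 counts in control libraries, against 39 and 60 with siRelA and 36 and 42 with siRelB. The siRelA libraries overlapped the controls in CPM and the siRelB libraries lay above them. The fitted differences were 0.57 ± 0.44 and 0.48 ± 0.45 on the log2 scale, both little more than 1 standard error, so at this depth no lowering of PTGS2 by either siRNA was seen in MDA-MB-231. Without siRelA replicate 2 the first became 0.12. In the second experiment PTGS2 was also low in MDA-MB-231, within 1 of the lowest VST value of the table, with control VST values of 7.97 and 7.98 and siEZH2 values of 8.01 and 7.90 (-0.02 ± 0.06, groups overlapping).

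In SUM149, PTGS2 was one of the abundant transcripts and was lower under siEZH2. Its control VST values were 13.46 and 13.52, and its siEZH2 values 12.23 and 12.22. In recovered counts these are 10976 and 11443 against 4523 and 4512. The groups did not overlap, the difference was -1.26 ± 0.06, and the recovered means differed 2.48-fold. DCN, a fibroblast marker, had its highest means in the same line and the higher of them with siEZH2, while COL1A1 had means of 8.61 and 8.93 there and LUM, PDGFRA and PDGFRB lay at 7.12 to 7.47; the part of such transcripts in the PTGS2 difference was not tested. The siEZH2 difference in SUM149 minus that in MDA-MB-231 was -1.24 ± 0.08 for PTGS2. Control SUM149 cells exceeded control MDA-MB-231 cells by 5.51 ± 0.06 in VST value, 222-fold in recovered counts. After siEZH2, PTGS2 in SUM149 was therefore still far above its level in MDA-MB-231. PACERR, a noncoding RNA on the opposite strand of the PTGS2 start that shares 219 exon bases with PTGS2, had 0 counts in the first experiment. Its VST values were 7.12 to 7.30 in MDA-MB-231 and 7.88 to 8.15 in SUM149. How strand was treated in the counting is unknown, so reads from the overlap cannot be told apart.

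**Figure D2:**
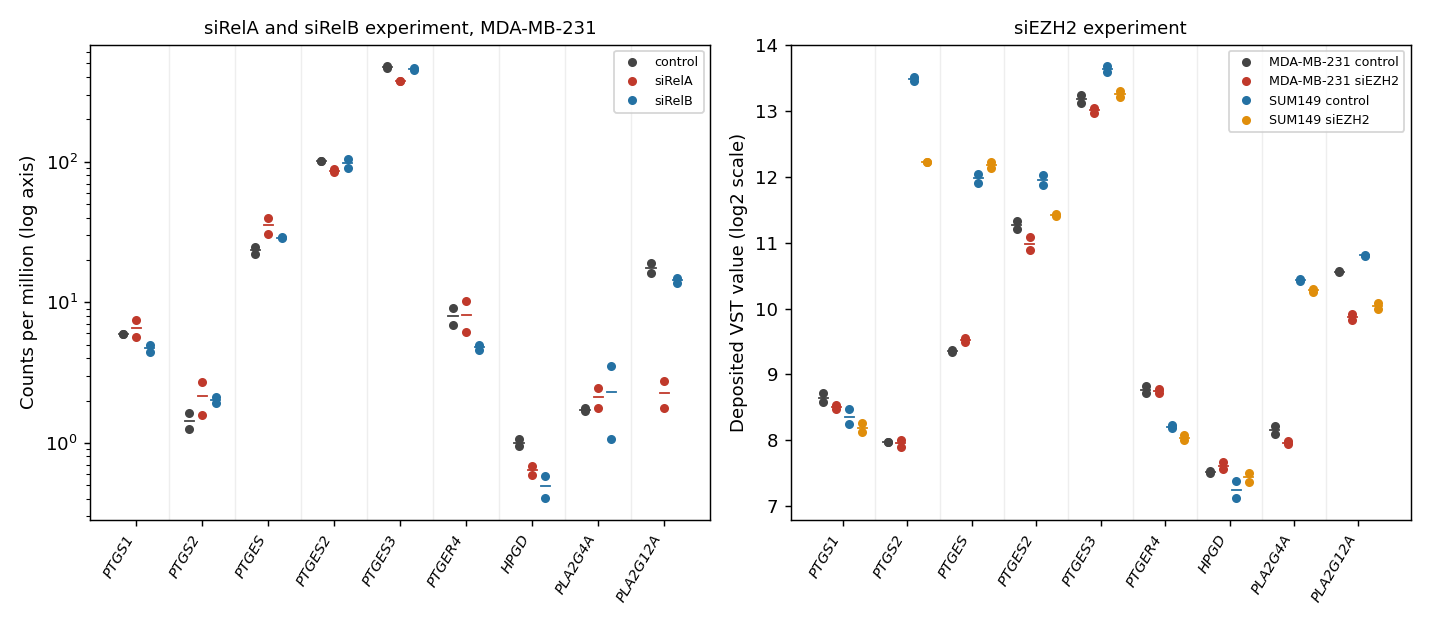
Level of each of the 9 genes in each library, as CPM on a log axis (first experiment, left) and as deposited VST values (second experiment, right). Points are libraries and short bars are group means. PTGS2 shows the widest gap between the lines, and PLA2G12A the widest gap between siRelA and control.

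PLA2G12A encodes a secreted-type phospholipase A2 (group XIIA). Control libraries held 376 and 432 of its counts, siRelA libraries 44 and 61, and siRelB libraries 281 and 272. Both siRelA libraries lay far below all others, 7.74-fold under the control mean in CPM (-2.96 ± 0.22 on the log2 scale). Leaving out either siRelA library gave -2.69 or -3.31. The siRelB libraries lay just below the controls (-0.30 ± 0.19), and siRelA against siRelB was -2.66 ± 0.22.

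PLA2G12A was also lower under siEZH2, by similar amounts in both lines. In MDA-MB-231 its VST values of 10.55 and 10.57 compared with 9.91 and 9.82 after siEZH2, without overlap. In SUM149 they were 10.82 and 10.80 against 10.00 and 10.09, again without overlap. The differences were -0.69 ± 0.06 and -0.77 ± 0.06, and the recovered means were 1.83-fold and 1.92-fold lower. The difference between the lines' effects was -0.08 ± 0.09, within its error. A read-through gene that shares 823 exon bases with PLA2G12A had 0 counts in all 6 libraries. The neighbouring gene CASP6, which encodes an executioner caspase, had 790 and 745 counts with control siRNA, 558 and 581 with siRelA and 578 and 528 with siRelB. These counts are not scaled to library size. Under siEZH2 its VST values went from 10.07 and 10.07 to 10.28 and 10.31 in MDA-MB-231. In SUM149 they went from 9.06 and 8.95 to 8.95 and 8.99.

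Both siRNA sets against NF-kB subunits left PLA2G4A without a call. Its counts were 39 and 40 with control siRNA, 44 and 54 with siRelA and 67 and 21 with siRelB, where the libraries differed most (0.29 ± 0.50 and 0.42 ± 0.50). Under siEZH2 it fell in MDA-MB-231 cells (-0.20 ± 0.07, limma adjusted p = 0.0206) and in SUM149 (-0.16 ± 0.07, limma adjusted p = 0.047). The recovered means were 1.55-fold and 1.15-fold lower, and the log2 difference on recovered counts in MDA-MB-231 was -0.64, so the VST scale compresses this change. The first call was lost without siEZH2 replicate 1 (adjusted p = 0.0955) or control 2 (adjusted p = 0.18), and the second under 9 of 16 alternatives, among them leaving out any of the 4 SUM149 libraries (adjusted p = 0.0796 to 0.181) or either MDA-MB-231 siEZH2 library (adjusted p = 0.0511 and 0.0512). PLA2G4A starts 148 kb from PTGS2 on chromosome 1.

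**Figure D3:**
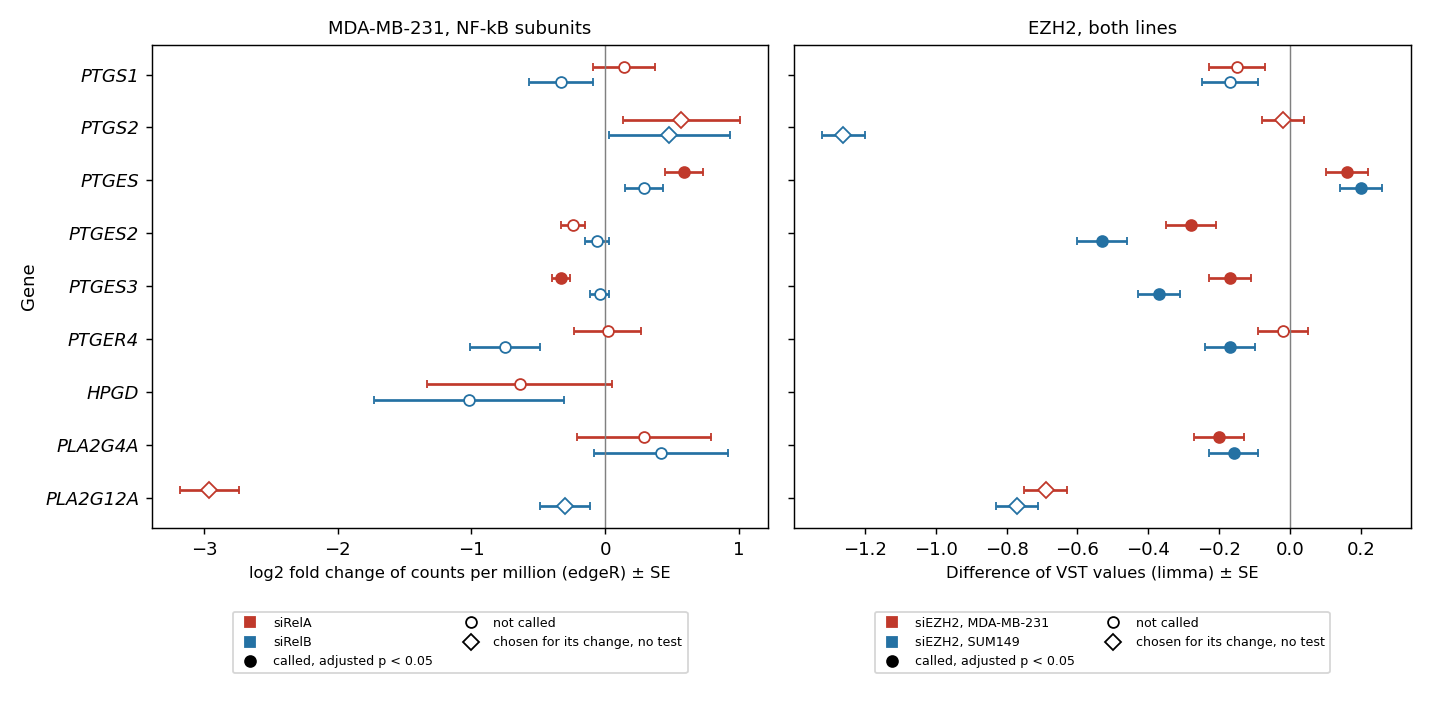
Log2 change (left, edgeR on counts) or difference of VST values (right, limma) of each gene against its control, with standard errors. Filled circles are genes called at adjusted p under 0.05, open circles are not called, and diamonds are the genes chosen for their change, which have no test. PLA2G12A lies at -2.96 under siRelA, and PTGS2 at -1.26 in SUM149 but at -0.02 in MDA-MB-231 under siEZH2. HPGD was not tested in the second experiment.

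Of the 7 genes not chosen for their change, 1 rose and 1 fell under siRelA, where 19.0% of all genes were called (edgeR, adjusted p under 0.05). Under siRelB 0 of 7 were called against 18.3% of all genes; 1 of them, PTGER4, had an unadjusted p under 0.05 by edgeR, and DESeq2 called 0. In the direct comparison of siRelA with siRelB 1 was higher and 1 lower, with 29.9% of all genes called (16.0% higher and 14.0% lower). Under siEZH2, of the 6 tested, 1 rose and 3 fell in MDA-MB-231 (56.6% of all genes called) and 1 rose and 4 fell in SUM149 (58.0%). The difference between the lines' siEZH2 effects was called for 0 of 6, with 21.5% of all genes called (11.2% higher in SUM149 and 10.4% lower); 2 of the 6 (PTGES2 and PTGES3) had an unadjusted p under 0.05 by limma, and edgeR on recovered counts called 0. Counts this small were not tested against these shares.

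The 3 prostaglandin E synthases did not move together. PTGES counts were 578 and 504 with control siRNA, 991 and 678 with siRelA and 547 and 568 with siRelB. It rose under siRelA by 0.59 ± 0.14, 1.5-fold in CPM and without overlap (edgeR adjusted p = 0.00683). That call was lost without siRelA replicate 1 (0.37, adjusted p = 0.15) or control replicate 2 (0.50, adjusted p = 0.0908). Under siRelB it gave 0.29 ± 0.14 (edgeR adjusted p = 0.174). PTGES also rose under siEZH2, from 9.37 and 9.34 to 9.55 and 9.49 in MDA-MB-231 cells (0.16 ± 0.06, limma adjusted p = 0.0382) and from 11.91 and 12.04 to 12.23 and 12.13 in SUM149 (0.20 ± 0.06, limma adjusted p = 0.012). The MDA-MB-231 call was lost without control 1, control 2 or siEZH2 replicate 1 (adjusted p = 0.0889, 0.159 and 0.158), with no filter on low values (adjusted p = 0.059), with quantile normalisation (adjusted p = 0.11) and with the replicate block (adjusted p = 0.0509). The SUM149 call was lost without siEZH2 replicate 1 (adjusted p = 0.114) or control 1 (adjusted p = 0.122).

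PTGES2, a membrane-associated synthase, fell under siEZH2. In MDA-MB-231 its VST values went from 11.21 and 11.33 to 10.89 and 11.08 (-0.28 ± 0.07, limma adjusted p = 0.00431), a call lost without siEZH2 replicate 1 (adjusted p = 0.0571) or control 2 (adjusted p = 0.0665). In SUM149 they went from 12.03 and 11.87 to 11.44 and 11.40 (-0.53 ± 0.07, 1.49-fold, limma adjusted p = 3.5e-05), a call kept under all 16 alternatives. The fall was larger in SUM149 by 0.25 ± 0.10, which did not pass the test of the difference (limma adjusted p = 0.107). It did without MDA-MB-231 siEZH2 replicate 1 (adjusted p = 0.0301) or SUM149 control 2 (adjusted p = 0.0486). Under siRelA PTGES2 gave -0.24 ± 0.09 (edgeR adjusted p = 0.089), and under siRelB -0.06 ± 0.09 (edgeR adjusted p = 0.703).

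PTGES3 encodes p23, a co-chaperone of HSP90 that also has prostaglandin E synthase activity. With control siRNA 10821 and 10833 counts were read, with siRelA 9227 and 8285, and with siRelB 8760 and 8947. The fall under siRelA was small and tight (-0.33 ± 0.07, 1.26-fold, edgeR adjusted p = 0.00444) and was called under all 13 alternatives. siRelB gave -0.04 ± 0.07 (edgeR adjusted p = 0.738), and siRelA was lower than siRelB by 0.29 ± 0.07 (edgeR adjusted p = 0.00733; 0.0653 without siRelB replicate 1). Under siEZH2 PTGES3 fell by 0.37 ± 0.06 in SUM149 (limma adjusted p = 2.0e-04), a call kept under all 16 alternatives. In MDA-MB-231 it fell by 0.17 ± 0.06 (limma adjusted p = 0.0324), lost without siEZH2 replicate 2 (adjusted p = 0.156) or control 1 (adjusted p = 0.266) and with no filter (adjusted p = 0.0591). Its processed pseudogene PTGES3P1 had 70 to 102 counts in the first experiment, and reads that the copies share cannot be told apart.

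The receptor PTGER4 differed between the NF-kB siRNAs. Its control counts were 161 and 207, against 251 and 135 with siRelA and 86 and 99 with siRelB. The siRelB libraries lay below all 4 others. The change under siRelB was -0.75 ± 0.26, just outside the threshold (edgeR adjusted p = 0.0542); it passed with no filter on low counts (adjusted p = 0.0166), in a fit of only the 2 groups (adjusted p = 0.0261) and without siRelA replicate 1 or 2 (adjusted p = 0.0215 and 0.016). The siRelA libraries straddled the controls (0.02 ± 0.25). siRelA exceeded siRelB by 0.77 ± 0.26 (edgeR adjusted p = 0.032), which was lost without siRelA replicate 1 (adjusted p = 0.447) or siRelB replicate 1 (adjusted p = 0.0996), with DESeq2 (adjusted p = 0.0736) and in a fit of only the 2 groups (adjusted p = 0.0595). Under siEZH2 PTGER4 gave -0.02 ± 0.07 in MDA-MB-231 cells (limma adjusted p = 0.829) and fell by 0.17 ± 0.07 in SUM149 (limma adjusted p = 0.0412), a call lost without any one SUM149 library (adjusted p = 0.0505 to 0.211), with no filter (adjusted p = 0.0702) and in a fit of the SUM149 libraries alone (adjusted p = 0.0618).

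PTGS1 and HPGD were low and were called in no knockdown. PTGS1 counts were 139 and 134 with control siRNA, 140 and 165 with siRelA and 84 and 99 with siRelB. Its siEZH2 differences, -0.15 ± 0.08 and -0.17 ± 0.08 (limma adjusted p = 0.138 and 0.0992), passed with quantile normalisation (adjusted p = 0.0468 and 0.0293), and the SUM149 one also without SUM149 control 1 (adjusted p = 0.0135). HPGD counts were 22 and 24, 17 and 13, and 11 and 8 in the same order. The groups did not overlap, but the changes of -0.64 ± 0.69 and -1.02 ± 0.71 were within about 1.5 standard errors (edgeR adjusted p = 0.584 and 0.362). HPGD did not reach the level needed for a test in the second experiment, where its VST values ran from 7.12 to 7.67.

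The windows of 250 bases before the RefSeq start are shown for 4 of these genes. PTGS2 and PLA2G12A were chosen by their change. PTGES rose under siEZH2, where PLA2G12A fell in both lines and PTGS2 in SUM149 only. PTGER4 differed between the NF-kB siRNAs. These calls of PTGES and PTGER4 were lost under some alternatives. The windows are from GRCh38.p14, 5′ to 3′ on the gene's strand, in lower case with motif matches in capitals.
PTGS2, chr1:186680424-186680673, minus strand: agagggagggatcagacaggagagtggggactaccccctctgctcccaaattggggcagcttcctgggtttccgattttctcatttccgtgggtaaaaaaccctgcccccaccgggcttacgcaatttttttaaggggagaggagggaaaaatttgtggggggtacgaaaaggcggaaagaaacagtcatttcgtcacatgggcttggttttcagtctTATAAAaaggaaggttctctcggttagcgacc
PLA2G12A, chr4:109730071-109730320, minus strand: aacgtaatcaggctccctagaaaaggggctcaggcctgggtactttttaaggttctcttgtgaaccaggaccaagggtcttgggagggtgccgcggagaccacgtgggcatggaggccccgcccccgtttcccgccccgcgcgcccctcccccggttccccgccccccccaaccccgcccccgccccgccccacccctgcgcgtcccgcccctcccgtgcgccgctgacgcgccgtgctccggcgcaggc
PTGES, chr9:129753043-129753292, minus strand: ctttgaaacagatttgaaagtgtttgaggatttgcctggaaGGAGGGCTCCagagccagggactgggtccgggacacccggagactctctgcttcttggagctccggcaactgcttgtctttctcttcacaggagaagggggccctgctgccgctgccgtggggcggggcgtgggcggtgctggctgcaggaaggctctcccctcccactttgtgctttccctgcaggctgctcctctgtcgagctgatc
PTGER4, chr5:40679665-40679914, plus strand: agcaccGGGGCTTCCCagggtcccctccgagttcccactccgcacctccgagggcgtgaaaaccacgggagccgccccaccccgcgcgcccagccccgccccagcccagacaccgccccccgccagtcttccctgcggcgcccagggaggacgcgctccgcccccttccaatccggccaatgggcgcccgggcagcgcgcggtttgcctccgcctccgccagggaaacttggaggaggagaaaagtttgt
The capitals in PTGS2 are a TATAAA that begins 32 bases before the start; the PTGS2 window lies inside the wider GENCODE v44 span of the gene, which reaches 186680922. Those in PTGES and PTGER4 are matches to the NF-kB (kappaB) consensus.

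The motif search was made after results were known, with 5 motifs on both strands of the 13 windows of the 9 genes and of all 35116 RefSeq windows. The kappaB consensus of 10 letters was tried in 3 nested forms. The strict form (GGG, a purine, any base, 3 pyrimidines, CC) is in 6.88% of all windows, the middle form, which frees the sixth base, in 9.96%, and the loose form, which also allows A as well as G after the first GG, in 12.3%. The strict form matched PTGES3 and PTGER4, the middle form also HPGD, and the loose form also PTGES, so the PTGES match depends on the form chosen. None of the 3 matched PTGS2 or PLA2G12A, which says only that these letters are not in these windows. The PTGS2 window does hold GGGACTACCC, which has an A where all 3 forms require a pyrimidine, and near matches of this kind were not counted. TATAAA, in 10.7% of windows, matched PTGS2 and PTGS1, and TGACGTCA (the cyclic AMP response element), in 1.65%, matched none of the 9 genes. Only its full letters were searched, and the PTGS2 window holds the shorter CGTCA with which it ends. CpG pairs numbered 26 in the PLA2G12A and PTGER4 windows, 9 in those of PTGS2 and PTGES and 2 in that of PLA2G4A, against a median of 11 over all windows.

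An siRNA can also lower transcripts other than its target whose 3′ UTR matches its seed, and PLA2G12A was low under siRelA but barely under siRelB. Words of 7 bases in the 3′ UTRs of canonical GENCODE v44 transcripts were therefore ranked, after results were known, by the median siRelA change of the genes that hold them, among 11488 words found in at least 500 of 12811 genes. The lowest was GCCTAGT: its 731 genes had a median change of -0.20, against 0.01 over all these genes, and 33.9% of them fell, against 12.1%. CCTAGTA (816 genes, -0.09, 24.5% fell) and TGCCTAG (1235 genes, -0.06, 20.9% fell), which overlap it, came next. Under siRelB the lowest was ACAAGAA (1898 genes, -0.11, 22.7% fell, against 12.7% of all). PLA2G12A, whose 3′ UTR is 4388 bases long, does not hold GCCTAGT but holds CCTAGTA and TGCCTAG 2 times each. Of 67 genes with 3′ UTRs at least that long that hold both of these words and not GCCTAGT, 13 fell (19.4%), against 13.0% of all 1419 genes with such long 3′ UTRs. PLA2G12A is itself one of the 67 and of the 13, and the words were ranked on the same changes. Only 2 of the 67 genes hold both words 2 or more times, PLA2G12A being one, and 1 of the 2 fell. Of the other tested pathway genes, PLA2G15 and FAAH hold GCCTAGT, with siRelA changes of -1.78 and 0.13. The part of these words in the PLA2G12A change was not tested.

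Beyond the 9 genes, 75 genes in 8 lists covered the rest of the pathway, and 43 of them were tested in the first experiment and 41 in the second. Under siRelA 5 rose and 7 fell, with a median change of 0.07 against 0.02 over all genes; 8.82% of all genes rose and 10.2% fell. PLA2G15, a lysosomal phospholipase, fell most, from 805 and 867 counts to 258 and 237 (-1.78 ± 0.13, edgeR adjusted p = 7.1e-08), while siRelB left it at 901 and 877. LPCAT1, a lysophospholipid acyltransferase, fell under siRelA (-0.94 ± 0.09, edgeR adjusted p = 1.9e-06) and under siRelB (-1.23 ± 0.09, edgeR adjusted p = 1.8e-07). LPCAT2, an acyltransferase of the same family, rose under siRelA (0.98 ± 0.15, edgeR adjusted p = 1.6e-04). Of the 5 tested phospholipases A2 and related enzymes 2 fell and 0 rose, and of the 5 tested prostanoid synthases and reductases 2 rose and 0 fell, among them AKR1C3 (0.50 ± 0.09, edgeR adjusted p = 9.8e-04), which also makes prostaglandin F2. The leukotriene enzyme ALOX5 rose from 142 and 164 counts to 316 and 293 (0.97 ± 0.22, edgeR adjusted p = 0.00546), lost without control replicate 1 (adjusted p = 0.0773). Some smaller calls also rest on single libraries. PLAAT3 (-0.31 ± 0.09, edgeR adjusted p = 0.0277) was lost without siRelA replicate 1 (adjusted p = 0.157), control 1 (adjusted p = 0.145) or control 2 (adjusted p = 0.0928). The reductase PRXL2B (0.44 ± 0.12, edgeR adjusted p = 0.0176) was lost without any one of the 4 libraries compared (adjusted p = 0.0598 to 0.155).

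Under siRelB 6 of the 43 rose and 5 fell (median 0.03 against 0.01), with 7.45% and 10.8% of all genes. The leukotriene B4 receptor LTB4R rose from 443 and 410 counts to 581 and 587 (0.70 ± 0.14, edgeR adjusted p = 0.00224), and DAGLB, a diacylglycerol lipase, rose by 0.51 ± 0.10 (edgeR adjusted p = 0.00192). The monoacylglycerol lipase MGLL fell by 0.61 ± 0.11 (edgeR adjusted p = 7.8e-04). ALOX5, which rose under siRelA, fell under siRelB to 93 and 60 counts (-0.75 ± 0.24, edgeR adjusted p = 0.04). This call was lost with DESeq2 (adjusted p = 0.0694), in a fit of only the 2 groups (adjusted p = 0.0551) and without siRelB replicate 2, control 1 or control 2 (adjusted p = 0.26, 0.0671 and 0.227). In the direct comparison ALOX5 was higher with siRelA than with siRelB by 1.72 ± 0.24 (edgeR adjusted p = 4.0e-05). ZFP36L2, an mRNA-decay factor, fell under siRelA (-0.55 ± 0.10, edgeR adjusted p = 6.6e-04) and under siRelB (-0.50 ± 0.10, edgeR adjusted p = 0.00149), comparisons that share their control libraries.

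Under siEZH2 more of the other pathway genes rose than fell. In MDA-MB-231 18 of 41 rose and 5 fell (median 0.13 against 0.00), and in SUM149 22 rose and 5 fell (median 0.21 against 0.00). The 22 include SLCO2A1, which passed the filter on low values only through the SUM149 siEZH2 libraries and so had to be higher there. About equal shares of all genes rose and fell: 29.4% and 27.1% in MDA-MB-231, and 29.4% and 28.6% in SUM149. The list of annexins and their partner, known as inhibitors of phospholipase A2, had 3 of 3 tested genes up in both lines. ANXA1 went from VST values of 12.72 and 12.68 to 14.22 and 14.31 in MDA-MB-231 cells (1.57 ± 0.06, limma adjusted p = 1.5e-10), and rose by 0.77 ± 0.06 in SUM149 (limma adjusted p = 1.1e-07). Of the 10 genes that release or re-esterify arachidonate, 5 rose and 2 fell in MDA-MB-231 and 7 rose and 1 fell in SUM149. Among them the arachidonate-activating ligase ACSL4 rose (0.79 ± 0.05 and 0.62 ± 0.05, limma adjusted p = 4.9e-08 and 4.7e-07) and the arachidonate acyltransferase MBOAT7 fell (-0.95 ± 0.06 and -0.77 ± 0.06, limma adjusted p = 2.5e-08 and 1.9e-07).

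Prostaglandin transport and breakdown genes other than HPGD had 3 of 5 up in MDA-MB-231 and 4 of 5 in SUM149, with 0 down in both lines by limma. Of all genes 29.4% were up in either line, and 27.1% were down in MDA-MB-231 and 28.6% in SUM149. The prostaglandin reductase PTGR3 rose in both lines (1.06 ± 0.07 and 0.97 ± 0.07, limma adjusted p = 3.0e-08 and 7.6e-08). The prostaglandin transporter SLCO2A1 went from 7.56 and 7.57 to 8.18 and 8.30 in SUM149 (a difference of 0.67 ± 0.06) and lay at 7.12 to 7.22 in MDA-MB-231. It passed the filter on low values only through the 2 SUM149 siEZH2 libraries, so it had to differ there and is given without a test, although the count of 4 of 5 includes it. PLA2G15 rose in both lines (0.32 ± 0.07 and 0.39 ± 0.07, limma adjusted p = 0.0026 and 5.9e-04), opposite to its fall under siRelA. Of the 8 RNA-binding regulators of PTGS2 mRNA, 0 rose and 3 fell in MDA-MB-231 and 2 rose and 3 fell in SUM149. Counts this small were not tested against the shares of all genes given above. ZFP36L1, which promotes decay of AU-rich mRNAs, rose in SUM149 from 10.64 and 10.66 to 11.56 and 11.64 (0.95 ± 0.09, limma adjusted p = 2.1e-06). HNRNPD (AUF1) and KHSRP, which also promote decay of AU-rich mRNAs, fell there by 0.44 ± 0.09 and 0.32 ± 0.06 (limma adjusted p = 6.9e-04 and 9.4e-04) and in MDA-MB-231 by 0.42 ± 0.09 and 0.41 ± 0.06 (limma adjusted p = 8.6e-04 and 1.2e-04). The part of these genes in the PTGS2 difference was not tested.

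**Figure D4:**
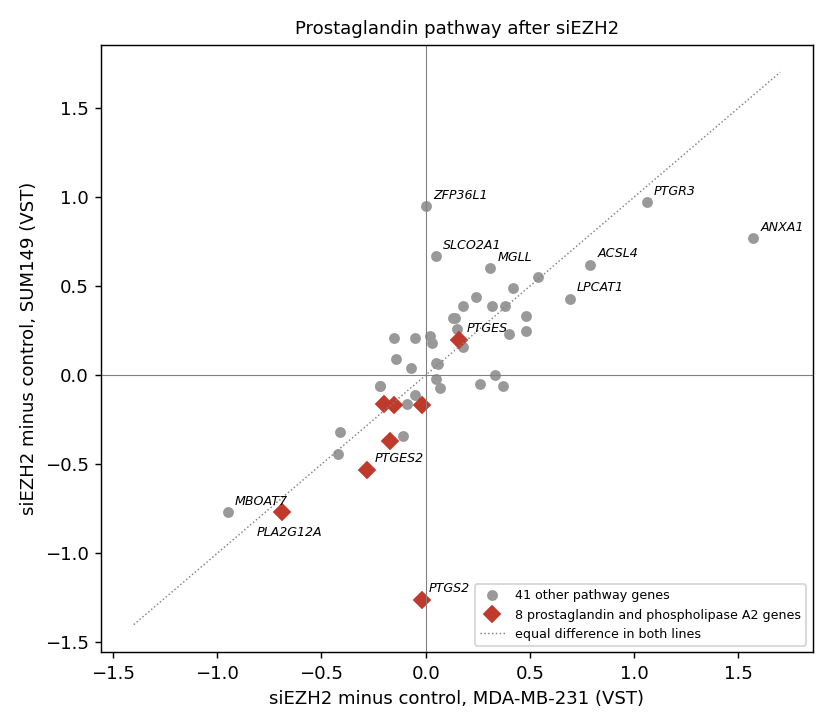
Difference of VST values between siEZH2 and control in MDA-MB-231 (horizontal) and SUM149 (vertical) for the 8 tested genes of the set (diamonds) and 41 other pathway genes (circles), with a dotted line for equal differences. PTGS2 lies on the vertical axis at -1.26, PLA2G12A lies near the dotted line, and ANXA1 and PTGR3 lie highest on the horizontal axis.

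Between the control cells, 19 of the 41 other pathway genes were higher in SUM149 and 18 lower, with 41.3% and 41.5% of all genes. These counts include genes that passed the filter on low values only through the line in which they are high, and the differences of such genes are given without a test. The prostaglandin receptors PTGER2 (2.20 ± 0.07) and PTGFR (1.30 ± 0.07) passed through SUM149, and AKR1C3 (-4.24 ± 0.06) and CELF2 (-1.94 ± 0.07), an RNA-binding protein known to bind PTGS2 mRNA, through MDA-MB-231. The phospholipase PLAAT3, which passed in both, was lower in SUM149 (-2.93 ± 0.07, limma adjusted p = 1.9e-13).

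The genes whose pattern was most like PTGS2 were sought among 11254 protein-coding genes by the mean of 2 Pearson correlations, over the 6 libraries of the first experiment and the 8 of the second, which share cell lines and treatments. They were FBF1 (0.952), PON2 (0.950), THG1L (0.943), KRBA1 (0.943) and PLSCR1 (0.941), all higher in SUM149 control cells. In the first experiment PTGS2 had only 29 to 60 counts, so counting error limits the correlations there, from 0.895 for THG1L to 0.957 for FBF1. The differences of these genes under siEZH2 in SUM149 ran from -0.15 for KRBA1 to 0.23 for PLSCR1, against -1.26 for PTGS2. Those most like PLA2G12A were OAZ2 (0.984), HAUS2 (0.980), CDK2 (0.977), YRDC (0.977) and KCTD9 (0.972). Their siRelA changes ran from -1.44 for CDK2, a cell cycle kinase, to -0.42 for OAZ2, against -2.96 for PLA2G12A. Under siEZH2 in MDA-MB-231 they ran from -0.97 for CDK2 to -0.25 for KCTD9, against -0.69 for PLA2G12A. In SUM149 they ran from -0.67 for CDK2 to -0.35 for KCTD9, against -0.77. These genes were chosen for their likeness, so a shared pattern follows from the choice and is given without a test.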

How the data were processed

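RNA sequencing of 14 libraries was used. For the first experiment the authors deposited raw read counts per Ensembl gene; genome build hg19, DESeq2 1.20.0, featureCounts 1.5.0-p3 and HISAT2 2.0.5 are named in the submitters' processing notes. For the second the authors deposited VST values on a log2 scale; hg19, DESeq2, Salmon, STAR 2.5.2b and cutadapt are named there. Annotation release, strand and transformation: not given in the sources used here. Samples were grouped by their labels.

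Counts were fitted with edgeR 4.0.16 (quasi-likelihood, TMM, default filter, 15930 genes tested, 3 residual degrees of freedom). VST values were fitted with limma 3.58.1 (eBayes with trend) over the 12356 genes that exceeded the table's minimum of 7.12 by 1 or more in 2 or more libraries (4 residual degrees of freedom). Fits used all libraries of an experiment, p-values were adjusted by Benjamini-Hochberg over all genes tested, and genes were called at adjusted p under 0.05. Standard errors are those of the models. Both fits were tested on simulated data. DESeq2 1.42.0, other filters and normalisations, leave-one-out fits and a replicate block were alternatives; edgeR on recovered counts was added after seeing the data. Of values under 300, 6.8 to 26.4% lay within 0.05 of a whole number, so whole reads were not recovered.

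The 9 genes, the pathway lists, the named genes and the alternatives were chosen with earlier results of these data known. Every member is named; other pathway genes could be named when called, larger changes first within a list, at most 4 per list and comparison, and the rest are given as counts. Exon lengths are the union of GENCODE v44 exons on GRCh38, which is not the authors' build; 58207 of 58735 identifiers matched. Promoters are from RefSeq (GRCh38.p14), which held all 9 genes. Motifs and 3′ UTR words were searched after results were known, and all forms tried are reported.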

Additional observations from a re-analysis of the deposited data

Results flagged for a closer look

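The siEZH2 effect differed between the lines for PTGS2, by -1.24 (SUM149 minus MDA-MB-231), given without a test because PTGS2 was chosen for its change. Among the other pathway genes the interaction term of limma was called for 8 of 41, with 21.5% of all genes. The difference was -0.79 for ANXA1 (adjusted p = 1.5e-05), which rose in both lines, -0.43 for ABCC4 (adjusted p = 0.00517), a prostaglandin exporter that rose in MDA-MB-231, and 0.95 for ZFP36L1 (adjusted p = 2.7e-04). It was -0.33 for ALOX5, which lay at the lowest VST value in all 4 SUM149 libraries. That leaves only its MDA-MB-231 change, so ALOX5 is given without a test although the 8 include it. The difference was -0.31 for TBXAS1, which was 8.1-fold lower in SUM149 control cells by recovered counts. TBXAS1 passed the filter on low values only through MDA-MB-231 libraries, so it too is given without a test although the 8 include it. The difference was 0.62 for SLCO2A1, which passed that filter only through the SUM149 siEZH2 libraries and is given without a test. For MGLL it was 0.29 (limma adjusted p = 0.0264) and for ZFP36L2 0.37 (limma adjusted p = 0.0241). On recovered counts the calls of ALOX5, SLCO2A1 and TBXAS1 were lost, and those of ALOX5, MGLL, TBXAS1 and ZFP36L2 were lost when single libraries were left out.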

How the results depend on the processing

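No member changed the sign of a called value under any alternative run. Over all genes, leaving out 1 library at a time moved the count of calls most in the first experiment's control libraries: siRelA gave 1624 without control replicate 1 and 1786 without control replicate 2 (up to 3287), against 3031, and siRelB 1754 and 1520 (up to 3362), against 2913. The difference between lines gave 1611 and 1683 without MDA-MB-231 control 1 or 2 and 1772 without SUM149 siEZH2 replicate 2 (up to 2532), against 2662; on recovered counts 63.8% of its calls were positive, against 51.9%. Of the 7 genes not chosen for their change, with 1 library left out the called number ranged from 1 to 2 under siRelA, 0 to 1 under siRelB, 0 to 2 between siRelA and siRelB, 1 to 4 for siEZH2 in MDA-MB-231, 2 to 5 for siEZH2 in SUM149 and 0 to 1 for the difference between lines. With no filter it was 1 under siRelB, and under siEZH2 it was 2 in the MDA-MB-231 line and 3 in the SUM149 line. In a fit of only the 2 groups it was 1 under siRelB and 1 between siRelA and siRelB, and DESeq2 gave 1 for the latter. These small counts change with members near the threshold.

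For the genes chosen for their change, recovered counts gave PTGS2 a line difference of 7.77 in place of 5.51, and PLA2G12A -0.89 and -0.93 under siEZH2; these are log2 folds of counts, a wider scale than VST values. Quantile normalisation gave PTGS2 -1.17 in SUM149 under siEZH2 and a line difference of 5.42.

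The replicate numbers are shared by the groups, but the labels name no common batch, and the deviations of same-numbered libraries correlated at -0.21 to 0.09, so the numbers were not taken to pair samples. With the replicate block 2958 genes were called under siRelA, 2828 under siRelB, 4680 between them, 6827 for siEZH2 in MDA-MB-231, 6989 for siEZH2 in SUM149, 2462 for the difference and 10159 between the lines. Of the members the block ended the calls of PTGES in MDA-MB-231 (adjusted p = 0.0509) and PLA2G4A in SUM149 (adjusted p = 0.0503) under siEZH2, and changed no other member's call. With 29 to 60 counts for PTGS2 and 8 to 24 for HPGD in the first experiment, counting error limits what these libraries can show.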
